A study of Mus musculus with 20 samples.

Results

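The ADAMTS metalloproteases are secreted, zinc-dependent enzymes with thrombospondin repeats that cut proteins of the extracellular matrix. Some members cleave the large proteoglycans aggrecan and versican, while others process fibrillar procollagens, cut cartilage oligomeric matrix protein (COMP) or act on fibrillin microfibrils. In breast tumors they can be made by tumor cells as well as by stromal cells, and the tissue inhibitor TIMP3 is a main brake on several of them. The 10 members described here were taken from a fixed list of gene symbols and matched to the Ensembl identifiers of the count files, and all 10 were found among 45706 genes. They are the proteoglycan-cleaving *Adamts1*, *Adamts4*, *Adamts5*, *Adamts9* and *Adamts15*, the procollagen N-proteinase *Adamts2*, the COMP-cleaving *Adamts7* and *Adamts12*, and *Adamts6* and *Adamts10*, which act in fibrillin microfibril biology.

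RNA was sequenced from mouse mammary tumors driven by the polyoma middle T oncogene (PyMT) and from cells grown out of such tumors. Tumors came from 18-week-old PyMT mice, 4 of them *MMTV-cre;Ctsd*-/-, which lack the lysosomal protease cathepsin D (CTSD) in the mammary epithelium, and 4 CTSD-competent controls. The labels call the controls WT, while the study counts mice with untargeted or floxed *Ctsd* alleles as controls. It names cre for the *Ctsd*-/- mice and not for the controls, so cre and *Ctsd* deletion cannot be told apart in tumors. The MMTV promoter, which is active in the mammary epithelium, drives PyMT as well as cre. *Ctsd* was not measured by cell type here. The cells were spontaneously immortalized tumor cells from 1 *Ctsd*+/+ mouse and 1 *MMTV-cre;Ctsd*-/- mouse, kept in mild starvation medium with 1% serum for 10 days (1% FCS) or for 12 weeks (1% FCS LT), with 3 samples in each of the 4 groups. With 1 line per genotype, genotype and line cannot be told apart in the cells, and p-values there measure the spread between samples of these lines. Total gene counts were 49725437 to 64291587 per tumor and 33622831 to 40239762 per cell sample. Levels are given as CPM, counts scaled by the library size after TMM normalization within each material, and genes, markers included, are ranked against each other only per kilobase of exon (RPKM).

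The deleted gene behaved as the labels state. *Ctsd* was at 1860, 2617, 1781 and 2532 CPM in the 4 control tumors and at 797, 360, 1295 and 1233 CPM in the 4 *Ctsd*-/- tumors. In the cells, *Ctsd* was at 1267 to 4199 CPM in the 6 *Ctsd*+/+ samples and at 114 to 192 CPM in the 6 *Ctsd*-/- samples, with no overlap between genotypes. Markers of epithelium were present in all cell groups. *Krt8*, a simple epithelial keratin, averaged 492 CPM in *Ctsd*+/+ 1% FCS cells and 3245 CPM in *Ctsd*-/- 1% FCS cells. The *Ctsd*+/+ 1% FCS cells also held mesenchymal transcripts, with a mean of 468 CPM for *Pdgfrb*, a receptor of fibroblasts and pericytes. This gene made up most of the mean sum of 508 CPM of the 7 fibroblast markers used below. Of the others, *Dpt* and *Lum* had no counts in these cells, *Fap* had at most 3 in any sample and *Dcn* averaged 0.742 CPM.

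*Adamts1* was the most abundant member per exon length in all 4 cell groups. Its mean level was 58.4 RPKM in *Ctsd*+/+ 1% FCS, 47.9 in *Ctsd*-/- 1% FCS, 16.6 in *Ctsd*+/+ 1% FCS LT and 40.2 in *Ctsd*-/- 1% FCS LT. These levels made up 53.9%, 80.7%, 85.9% and 77.0% of the summed RPKM of the 10 members in the same order. Control tumors had a more even mixture, in which *Adamts10* took 29.4%, *Adamts2* 24.0% and *Adamts1* 21.5% of the sum, and the spread over samples of these 3 shares overlapped. In *Ctsd*-/- tumors *Adamts1* led with 35.8% (22.7 to 45.6% over the 4 tumors). The summed level was 14.3 ± 5.16 RPKM (SD, n = 4) in control and 23.3 ± 5.72 (n = 4) in *Ctsd*-/- tumors. In cells it was 106 ± 50.3 (n = 3) in *Ctsd*+/+ 1% FCS, 58.8 ± 11.3 (n = 3) in *Ctsd*-/- 1% FCS, 18.9 ± 8.44 (n = 3) in *Ctsd*+/+ 1% FCS LT and 52.3 ± 6.32 (n = 3) in *Ctsd*-/- 1% FCS LT.

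Tumors and cells differed in which members were present, although the materials were prepared and counted differently and their levels are set side by side without a test. *Adamts15* averaged 7.81 CPM in control and 16.2 CPM in *Ctsd*-/- tumors, but no more than 0.420 CPM in any cell group. *Adamts6* showed the opposite picture, with 0.318 and 0.403 CPM in the tumor groups and 4.61 to 53.1 CPM over the cell groups. *Adamts2* averaged 33.5 and 33.8 CPM in the tumor groups and was close to 0 in all cell groups except *Ctsd*+/+ 1% FCS.

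**Figure D1:**
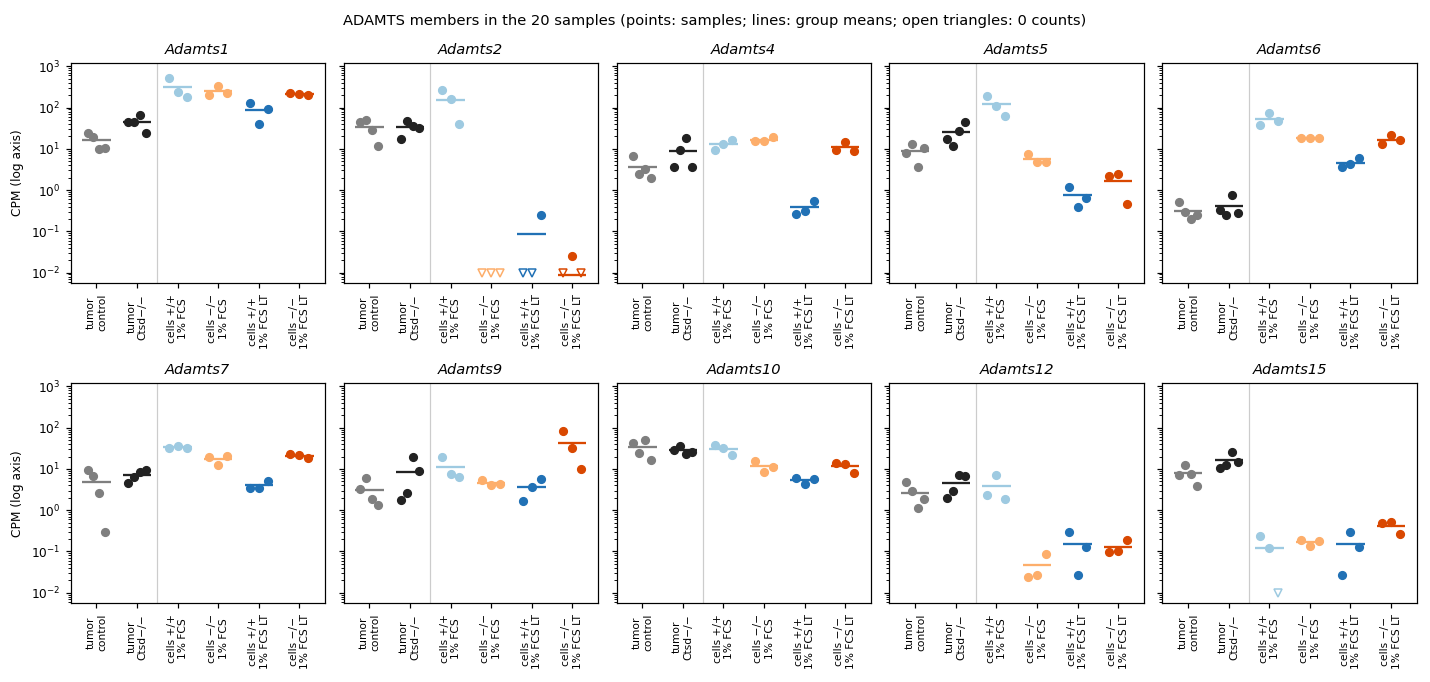
CPM (log axis) of each of the 10 members in the 20 samples, with tumors left and cells right of the grey line in each panel; points are samples, horizontal lines group means and open triangles samples with 0 counts. *Adamts2* lies at or near 0 in every cell group but *Ctsd*+/+ 1% FCS, and *Adamts4* is lowest in the *Ctsd*+/+ 1% FCS LT samples, at 0.270 to 0.558 CPM.

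The first comparison asked which members differ in tumors that lack CTSD in the epithelium. A gene was called at an unadjusted p under 0.1, the threshold of the study for tumors. Of the 10 members, 5 were called, all of them higher in *Ctsd*-/- tumors, against 8.44% of the 18617 genes tested called higher and 8.27% called lower. All 5 are those described above as proteoglycan-cleaving, a grouping that covers the 10 members only. Outside it, 2 of 6 tested ADAMTS proteases were called higher, among them the procollagen N-proteinase *Adamts14* (log2 FC 1.72). The median log2 fold change (log2 FC) of the 10 members was 0.92, beside 0.001 over all genes tested.

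*Adamts1*, an enzyme that cuts versican and aggrecan, was at 24.4, 19.2, 9.81 and 10.6 CPM in the 4 control tumors. In the 4 *Ctsd*-/- tumors it was at 43.9, 44.6, 64.5 and 24.5 CPM. The lowest *Ctsd*-/- tumor lay just above the highest control, so the groups did not overlap, as was the case with the knockout above for 2.26% and with the knockout below for 1.89% of all genes tested. Its log2 FC was 1.47 (SE 0.367), with an unadjusted p of 0.00237 and an adjusted p of 0.381. *Adamts5*, a major aggrecan-degrading enzyme, was at 7.87, 13.1, 3.63 and 10.7 CPM in controls and at 17.4, 11.5, 26.4 and 44.3 CPM in *Ctsd*-/- tumors. Replicate 2 of the *Ctsd*-/- tumors fell within the control range. The log2 FC of *Adamts5* was 1.50 (SE 0.471, unadjusted p = 0.00968). *Adamts15* was at 7.07, 12.7, 7.51 and 3.96 CPM in controls and at 10.3, 12.8, 26.4 and 15.1 CPM in *Ctsd*-/- tumors, where replicate 1 lay below the highest control. Its log2 FC was 1.05 (SE 0.393, unadjusted p = 0.0233).

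For *Adamts4*, another aggrecan-degrading enzyme, *Ctsd*-/- replicates 2 and 3 lay above all controls and replicates 1 and 4 within their range. Its levels were 6.66, 2.42, 3.23 and 1.93 CPM in controls and 3.65, 9.29, 18.7 and 3.72 CPM in *Ctsd*-/- tumors (log2 FC 1.31, SE 0.588, unadjusted p = 0.0495). *Adamts9*, a versican-cleaving enzyme, was at 3.21, 5.91, 1.84 and 1.34 CPM in controls and at 1.78, 2.55, 19.96 and 9.08 CPM in *Ctsd*-/- tumors. Replicates 3 and 4 were high and replicates 1 and 2 lay within the control range (log2 FC 1.43, SE 0.748, unadjusted p = 0.0833). The call of *Adamts4* ended without control replicate 2 (unadjusted p = 0.109), control replicate 4 (0.111) or *Ctsd*-/- replicate 3 (0.249, log2 FC 0.64). That of *Adamts9* ended without control replicate 1 (unadjusted p = 0.127), 3 (0.173) or 4 (0.176), without *Ctsd*-/- replicate 3 (0.439, log2 FC 0.54) or 4 (0.126), and in limma-voom (0.246). Without *Ctsd*-/- replicate 3 or without control replicate 4, 3 members remained called, namely *Adamts1*, *Adamts5* and *Adamts15*.

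The other 5 members did not pass. *Adamts2*, which trims the N-propeptide of procollagens, had a log2 FC of 0.01 (SE 0.429), *Adamts10* of −0.25, *Adamts6* of 0.33, *Adamts7* of 0.60 and *Adamts12* of 0.79. *Adamts12* was called higher without control replicate 1 (log2 FC 1.26, unadjusted p = 0.043) or without *Ctsd*-/- replicate 1 (1.06, 0.0701). For *Adamts7*, control replicate 4 stood at 0.304 CPM, while the other 3 controls were at 2.64 to 9.24 CPM and the 4 *Ctsd*-/- tumors at 4.60 to 9.56 CPM. In edgeR 0 members had an adjusted p under 0.05 (0.00537% of all genes did, a single gene), and 4 had an unadjusted p under 0.05 (8.94% of all genes did). At an adjusted p under 0.05 DESeq2 gave 1 member (265 of 18617 genes) and limma-voom 0 members (2 genes).

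Some markers of stromal cells were called higher as well. All 6 adipocyte markers were called higher without CTSD, and their log2 FC had a median of 2.80. Their summed level was 301, 918, 222 and 2280 CPM in controls and 3000, 1140, 6880 and 11600 CPM in *Ctsd*-/- tumors, with *Fabp4*, a fatty acid carrier of fat cells, as the most abundant in both groups. Of 6 endothelial markers 4 were called higher (median 1.08), with sums of 109, 127, 56.0 and 56.0 CPM in controls and 67.9, 124, 300 and 285 CPM in *Ctsd*-/- tumors and *Pecam1* as the most abundant. Of 7 fibroblast markers *Pdgfra* and *Dpt* were called higher (median 0.61), with sums of 561, 792, 253 and 397 CPM in controls and 577, 383, 1090 and 783 CPM in *Ctsd*-/- tumors and *Dcn* as the most abundant. Of 6 pericyte and smooth muscle markers none was called in edgeR (0 had an unadjusted p under 0.05, median 0.28), with sums of 905, 1030, 781 and 457 CPM in controls and 538, 813, 1540 and 1050 CPM in *Ctsd*-/- tumors. Among leukocyte markers 1 of 6 was called, the B cell gene *Cd79a* (median 0.10), and 7 of 7 epithelial markers were not called (median −0.08). No marker of these lists was at 0 in a whole tumor group. The part of other cell types in the differences was not tested, and more cells of a type and more RNA per cell cannot be told apart in bulk tissue. The labels carry a code that starts with LR, whose meaning is not stated. Each LR code holds a single genotype in tumors, so code and genotype cannot be told apart there. The share of reads counted as ambiguous was 8.73, 9.82, 12.85 and 16.16% in controls and 10.16, 8.61, 8.05 and 7.37% in *Ctsd*-/- tumors, and control replicate 4 also had the fewest gene counts (49725437). Control replicates 3 and 4, with the highest ambiguous shares, had lower *Adamts1* than the other 6 tumors and lower *Adamts9* than the other 2 controls, and the part of library quality in the results was not tested.

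Relatives and partners of the members were read against the same shares of all genes in tumors, 8.44% called higher and 8.27% called lower. Of 9 remaining ADAMTS proteases 6 were tested and 2 were called higher, *Adamts14* and *Adamts18*. *Adamts14*, a procollagen N-proteinase like *Adamts2*, was at 0.875, 1.13, 0.647 and 0.837 CPM in controls and at 1.88, 1.89, 4.34 and 3.42 CPM in *Ctsd*-/- tumors, without overlap (log2 FC 1.72, SE 0.396, adjusted p = 0.345). Of 24 substrates 23 were tested and 2 were called higher, the brain proteoglycan gene *Ncan* (log2 FC 2.56) and the basement membrane gene *Nid1* (1.18). Among 11 inhibitors, activating enzymes and clearance receptors, *Timp4* (log2 FC 3.32) and the convertase *Furin* (0.42) were higher and *Timp1* was lower (log2 FC −0.996). The groups overlapped for these 5 genes and *Adamts18*, which lie outside the rule for named genes and were named after their values were seen. None of 7 ADAMTS-like proteins was called in edgeR, and 0 of the 7 had an unadjusted p under 0.05. Among 7 tested hyaluronan matrix partners, the synthase *Has2* was called lower, also with overlap (log2 FC −1.25).

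**Figure D2:**
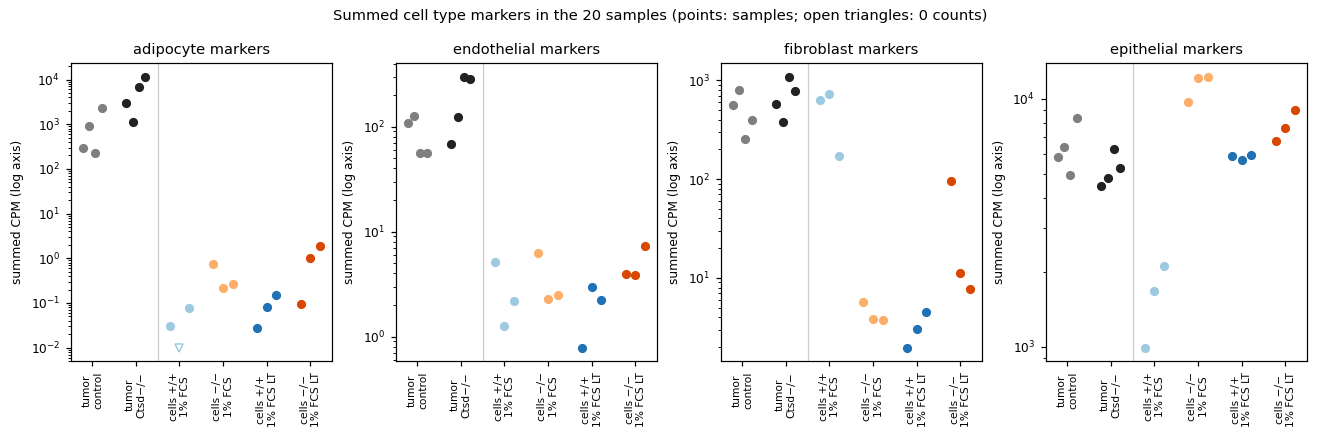
Summed CPM (log axis) of the adipocyte, endothelial, fibroblast and epithelial markers in each of the 20 samples; points are samples and the open triangle is a sample with 0 counts. The adipocyte sum of *Ctsd*-/- tumors reaches 11600 CPM, and the fibroblast sum of *Ctsd*+/+ 1% FCS cells, 171 to 724 CPM, lies above that of the other cell samples. On average most of the latter sum is *Pdgfrb*.

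The second comparison asked how *Ctsd*-/- cells differ from *Ctsd*+/+ cells after 10 days in 1% FCS. In cells a gene was called at an adjusted p under 0.05 with an absolute log2 FC above 1. Of the 10 members 5 were called, all lower in *Ctsd*-/- cells (*Adamts2*, *Adamts5*, *Adamts6*, *Adamts10* and *Adamts12*), against 14.6% of 15178 genes called lower and 10.3% called higher. The median log2 FC of the members was −1.35, and it was the same with *Adamts2* set at its bound, beside 0.000 over all genes.

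*Adamts2* was at 267, 161 and 38.9 CPM in the 3 *Ctsd*+/+ samples and had 0 counts in all 3 *Ctsd*-/- samples. Against a floor of 3 counts over the group, which covers counting error only, the level in *Ctsd*-/- cells was at least 5580-fold lower (adjusted p = 1.67e-05). This bound was 3540-fold without *Ctsd*+/+ replicate 1, the highest sample, and 3520-fold without *Ctsd*-/- replicate 1. *Adamts5* was at 186, 108 and 63.5 CPM in *Ctsd*+/+ and at 7.67, 4.71 and 4.76 CPM in *Ctsd*-/- samples. Every *Ctsd*-/- sample lay far below every *Ctsd*+/+ sample (log2 FC −4.38, SE 0.549, adjusted p = 5.43e-05). *Adamts12* was at 2.34, 7.08 and 1.88 CPM in *Ctsd*+/+ and at 0.0243, 0.0274 and 0.0887 CPM in *Ctsd*-/- samples. The latter rest on 5 counts in all, so that the size of its log2 FC of −6.28 (SE 0.825) is loosely determined.

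Both microfibril-related members were called lower as well. *Adamts6* was at 37.5, 73.6 and 48.2 CPM in *Ctsd*+/+ and at 18.8, 18.3 and 18.5 CPM in *Ctsd*-/- samples (log2 FC −1.52, SE 0.257, adjusted p = 0.000492). *Adamts10* was at 38.4, 32.4 and 22.3 CPM and at 15.7, 8.27 and 11.2 CPM in the same order of genotypes (log2 FC −1.41, SE 0.288, adjusted p = 0.00178). Both pairs of groups were separate. *Adamts7* had an adjusted p of 0.00185 but a log2 FC of −0.96, short of the fold threshold, which it passed without *Ctsd*+/+ replicate 3 (adjusted p = 0.00355) and without *Ctsd*-/- replicate 1 (−1.05) or 3 (−1.06). Among the proteoglycan-cleaving members, *Adamts1* (log2 FC −0.29, adjusted p = 0.592) and *Adamts4* (0.34, adjusted p = 0.308) were not called, and *Adamts9* had a log2 FC of −1.29 with an adjusted p of 0.135. *Adamts15* had at most 20 counts in any cell sample. The LR code of the labels, whose meaning is not stated, sets apart 1 sample in each cell group. With only the samples that share the most frequent code, 2 per group, 6 members were called, *Adamts7* being added.

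Genes that work with these enzymes were called lower more often than higher. Of 24 substrates 19 were tested and 12 were called lower, with a median log2 FC of −4.28. *Vcan*, the gene of versican, which was picked after its values were seen, was at 74.5, 93.8 and 141 CPM in *Ctsd*+/+ and at 2.17, 0.794 and 1.39 CPM in *Ctsd*-/- samples. *Fbn1*, the gene of fibrillin-1, was at 358, 595 and 227 CPM in *Ctsd*+/+ samples and at 0.195 CPM in replicate 1 of the *Ctsd*-/- samples, with 0 in replicates 2 and 3. *Col3a1*, a substrate chain of the procollagen N-proteinases, was at 18.4, 265 and 38.3 CPM in *Ctsd*+/+ and at 0, 0 and 0.0296 CPM in *Ctsd*-/- samples, and *Nid2*, a basement membrane linker, averaged 25.9 CPM in *Ctsd*+/+ cells and had 0 counts in *Ctsd*-/- cells.

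The inhibitor *Timp3* was at 3631, 2616 and 871 CPM in *Ctsd*+/+ and at 7.67, 1.04 and 0.976 CPM in *Ctsd*-/- samples (log2 FC −9.50, SE 1.38, adjusted p = 0.000166). Its list held 4 lower calls, *Timp1* being among them, and 1 higher call, *Pcsk6*, among 9 tested genes. Also lower were *Lrp1*, an endocytic receptor that clears several ADAMTS enzymes (log2 FC −2.08), and *Pcsk5*, a proprotein convertase (log2 FC −3.54). Of the remaining ADAMTS proteases 5 were tested and 3 were lower, namely *Adamts16* (log2 FC −9.44, with at most 0.0243 CPM in *Ctsd*-/- samples), *Adamts14* (−7.31) and *Adamts8* (−1.75). Among 6 tested ADAMTS-like proteins, which share the ancillary domains but lack the protease, 3 were lower and *Thsd4* was higher. *Adamtsl1* had 0 counts in *Ctsd*-/- cells and averaged 2.46 CPM in *Ctsd*+/+ cells, *Adamtsl3* had a log2 FC of −4.48 and *Adamtsl4* of −2.63. Of 5 hyaluronan matrix partners tested, *Tnfaip6* (log2 FC −2.84) and the hyaluronan synthase *Has2* (−1.56) were lower and the hyaluronan receptor *Cd44* was higher (1.02).

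Cell type markers differed between the same groups. The fibroblast markers summed to 629, 724 and 171 CPM in *Ctsd*+/+ and to 5.74, 3.86 and 3.72 CPM in *Ctsd*-/- 1% FCS samples. All 3 that could be tested of the 7 were lower (*Pdgfra*, *Pdgfrb* and *Col6a3*). *Pdgfrb* was the most abundant in *Ctsd*+/+ cells, while *Dpt* and *Lum*, defining markers of tissue fibroblasts, had 0 counts in both groups. The 7 epithelial markers were all higher in *Ctsd*-/- cells (median log2 FC 2.72), with sums of 991, 1680 and 2120 CPM in *Ctsd*+/+ and 9730, 12100 and 12300 CPM in *Ctsd*-/- samples, and *Krt18* as the most abundant in both. Of 3 basal epithelial markers, by contrast, *Krt14* and *Trp63* were lower and *Krt5* was higher (median −2.50), with sums of 39.8, 47.1 and 32.7 CPM in *Ctsd*+/+ and 5.62, 7.72 and 8.22 CPM in *Ctsd*-/- samples. Of 6 pericyte and smooth muscle markers 3 were lower (*Acta2*, *Cnn1* and *Rgs5*) and *Des* was higher, with sums of 102, 108 and 77.9 CPM in *Ctsd*+/+ and 57.5, 25.1 and 33.8 CPM in *Ctsd*-/- samples, *Acta2* as the most abundant in *Ctsd*+/+ and *Notch3* in *Ctsd*-/- cells, and *Acta2* at 0 counts in *Ctsd*-/- cells. Of 3 tested leukocyte markers *Ptprc* and *Cd68* were higher (median 2.12), with list sums of 6.30, 7.54 and 14.0 CPM in *Ctsd*+/+ and 27.3, 15.9 and 11.5 CPM in *Ctsd*-/- samples. *Cdh5* was higher among 4 tested endothelial markers and *Fabp4*, the single adipocyte marker tested, was higher, both lists summing to no more than 6.25 CPM in any sample. The part of these differences in the levels of the members was not tested.

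The third comparison put the genotypes side by side after 12 weeks in 1% FCS. Of the 10 members 6 were called, all higher in *Ctsd*-/- cells (*Adamts1*, *Adamts4*, *Adamts6*, *Adamts7*, *Adamts9* and *Adamts10*), against 9.24% of 15178 genes called higher and 10.1% called lower. The members' median log2 FC was 1.37, beside 0.014 over all genes.

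*Adamts4* was at 0.270, 0.320 and 0.558 CPM in *Ctsd*+/+ and at 9.15, 14.4 and 9.07 CPM in *Ctsd*-/- 1% FCS LT samples. The gap between the groups was wide compared with the spread within them (log2 FC 4.81, SE 0.334, adjusted p = 1.29e-06). *Adamts9* was at 1.65, 3.596 and 5.60 CPM in *Ctsd*+/+ and at 83.6, 31.6 and 10.1 CPM in *Ctsd*-/- samples (log2 FC 3.53, SE 0.720, adjusted p = 0.00225). All *Ctsd*-/- samples were above all *Ctsd*+/+ samples, but they spread widely, falling from replicate 1 to replicate 3. Over 20 alternatives the log2 FC of *Adamts9* ranged from 2.53 to 4.45, and its call was kept in each. *Adamts1* was at 129, 40.9 and 94.2 CPM in *Ctsd*+/+ and at 232, 211 and 197 CPM in *Ctsd*-/- samples (log2 FC 1.28, SE 0.421, adjusted p = 0.0305). Its adjusted p rose above the threshold without *Ctsd*+/+ 1% FCS LT replicate 2 (0.0912) or replicate 3 (0.0626), and without *Ctsd*-/- 1% FCS LT replicate 1 (0.0705), 2 (0.0631) or 3 (0.0511).

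*Adamts7*, a COMP-cleaving member, was at 3.46, 3.54 and 5.17 CPM in *Ctsd*+/+ and at 22.6, 21.9 and 18.5 CPM in *Ctsd*-/- samples (log2 FC 2.37, SE 0.209, adjusted p = 6.44e-06). *Adamts6* was at 3.59, 4.29 and 5.96 CPM and at 13.1, 21.1 and 16.3 CPM in the same order of genotypes (log2 FC 1.86, SE 0.267, adjusted p = 0.000208). *Adamts10* was at 5.999, 4.21 and 5.63 CPM in *Ctsd*+/+ and at 13.9, 13.4 and 7.91 CPM in *Ctsd*-/- samples (log2 FC 1.15, SE 0.292, adjusted p = 0.00836). None of these 3 pairs of groups overlapped. *Adamts5* did not pass, with 1.22, 0.3996 and 0.659 CPM in *Ctsd*+/+ and 2.18, 2.40 and 0.460 CPM in *Ctsd*-/- samples (log2 FC 1.14, adjusted p = 0.166). *Adamts2* had 0, 0 and 10 counts in *Ctsd*+/+ and 0, 1 and 0 counts in *Ctsd*-/- samples, so its log2 FC of −2.98 (adjusted p = 0.447) rested on *Ctsd*+/+ replicate 3 and was 1.79 without that sample. *Adamts5* was called without *Ctsd*-/- 1% FCS LT replicate 3, its lowest sample (log2 FC 1.60, adjusted p = 0.0357). Within the most frequent LR code 7 members were called, *Adamts5* being added.

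The partners did not all follow the members. Of 19 tested substrates 7 were lower and 4 higher in *Ctsd*-/- 1% FCS LT cells. *Vcan* was at 51.0, 66.3 and 93.7 CPM in *Ctsd*+/+ and at 2.30, 1.03 and 1.09 CPM in *Ctsd*-/- samples (log2 FC −5.57, SE 0.440, adjusted p = 3.09e-06). *Acan*, the gene of aggrecan, was at 26.1, 6.53 and 1.83 CPM in *Ctsd*+/+ samples and had 0 counts in all 3 *Ctsd*-/- samples, whereas *Col5a1*, a procollagen chain, was higher in *Ctsd*-/- cells (log2 FC 6.73, SE 1.02). The other 3 higher substrates were *Bgn* (log2 FC 2.11), *Ltbp1* (1.03) and *Vegfc* (1.41). Thus *Adamts4* and *Adamts9*, which cleave proteoglycans, were higher in the same cells in which *Vcan* and *Acan* were lower.

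*Timp3* stayed low in *Ctsd*-/- cells, at 18.6, 1.16 and 1.21 CPM against 3312, 2167 and 2107 CPM in *Ctsd*+/+ 1% FCS LT samples (log2 FC −8.49, SE 1.32, adjusted p = 0.000368). *Lrp1* was higher (log2 FC 3.41) and the convertase *Pcsk6* lower (−2.18), and 3 of 9 tested genes of that list were called. Of 6 tested ADAMTS-like genes 3 were higher and 1 lower, with *Papln* at a log2 FC of 5.58, *Adamtsl3* at 4.40, *Adamtsl5* at 2.17 and *Adamtsl1* at −2.79. Among 5 tested remaining proteases *Adamts17* was lower (log2 FC −2.16) and *Adamts8* was higher (2.63, with overlap). *Has2* was the single hyaluronan partner of 5 that was called (log2 FC 2.78). Of 7 epithelial markers *Cdh1* and *Esrp1* were lower and 5 were not called, with sums of 5890, 5660 and 5930 CPM in *Ctsd*+/+ and 6770, 7620 and 8990 CPM in *Ctsd*-/- samples. The fibroblast sum was 1.97, 3.01 and 4.51 CPM in *Ctsd*+/+ and 95.7, 11.1 and 7.76 CPM in *Ctsd*-/- samples, with *Dpt* at 0 in both, and *Pdgfra* and *Pdgfrb* were higher. *Pdgfra* was the most abundant in *Ctsd*+/+ cells and *Pdgfrb* in *Ctsd*-/- cells. Of 4 tested endothelial markers 2 were higher (median 1.60), and the single adipocyte marker tested was higher (5.55). Both lists summed to no more than 7.35 CPM in any of these samples. Of 6 pericyte and smooth muscle markers *Des* was higher, *Notch3* was lower and 4 were not called (median 0.29). The pericyte and smooth muscle sum of 567, 422 and 385 CPM in *Ctsd*+/+ and 48.1, 44.8 and 37.4 CPM in *Ctsd*-/- samples was nearly all *Notch3*. Of 3 tested leukocyte markers *Cd68* was higher, and *Ptprc* and *Csf1r* were lower. Their list summed to 55.3, 58.5 and 64.3 CPM in *Ctsd*+/+ samples, nearly all *Csf1r*, and to 8.83, 13.5 and 25.1 CPM in *Ctsd*-/- samples. Of 3 basal epithelial markers *Krt14* was lower and 2 were not called, with sums of 76.5, 66.5 and 18.7 CPM in *Ctsd*+/+ and 5.46, 4.51 and 3.85 CPM in *Ctsd*-/- samples, mostly *Krt14*. The *Ctsd*-/- sample with the highest *Adamts9*, replicate 1, also had the highest fibroblast sum, and the part of these markers in the result was not tested.

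The fourth comparison followed *Ctsd*+/+ cells from 10 days to 12 weeks in 1% FCS. Of the 10 members 8 were called, all lower after 12 weeks, against 12.3% of 15178 genes called lower and 11.0% called higher. The members' median log2 FC was −3.29, beside 0.005 over all genes. The drop was steep for *Adamts5*, from 63.5 to 186 CPM down to 0.3996 to 1.22 CPM (log2 FC −7.30, SE 0.655, adjusted p = 5.02e-06), and for *Adamts4*, from 9.60 to 16.6 CPM down to 0.270 to 0.558 CPM (−5.09, SE 0.337, adjusted p = 6.2e-07). *Adamts2* went from 15659 counts over the group to 10, which lay in a single sample, replicate 3 (log2 FC −10.74, SE 1.01). *Adamts12* had a log2 FC of −4.62, *Adamts6* of −3.52, *Adamts7* of −3.07, *Adamts10* of −2.56 and *Adamts1* of −1.82. *Adamts9* and *Adamts15* were not called, at a log2 FC of −1.61 (adjusted p = 0.0726) and 0.34 (adjusted p = 0.775). *Adamts9* was called without *Ctsd*-/- 1% FCS LT replicate 1 (adjusted p = 0.0341) or 3 (0.0274). With the most frequent LR code alone 9 members were called, *Adamts9* being added.

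Several partner genes fell with them. Of 19 tested substrates 10 were lower and 3 higher (*Acan*, *Reln* and *Vwf*), with *Col5a1* from 1021 to 3000 CPM down to at most 1.45 CPM (log2 FC −11.68), *Col3a1* at −10.07 and *Col1a1* at −9.97. *Lrp1* fell from 2370 to 5208 CPM down to 117 to 188 CPM (log2 FC −4.67), *Timp1* had a log2 FC of −1.61 and *Pcsk6* rose (2.86), while *Timp3* stayed between 871 and 3631 CPM in all 6 samples. Of the ADAMTS-like genes, 5 of 6 tested were lower and *Thsd4* was higher, led by *Adamtsl3* (log2 FC −5.98), *Papln* (−5.42) and *Adamtsl1* (−3.30). Among 5 remaining proteases tested 3 were lower, *Adamts16* (log2 FC −6.19), *Adamts8* (−3.78) and *Adamts14* (−2.27), and *Adamts17* was higher (1.16). *Has2* (log2 FC −5.24) and the link protein *Hapln4* (−1.20) were lower and *Has3* was higher (1.53). The fibroblast sum went from 171 to 724 CPM down to 1.97 to 4.51 CPM and the epithelial sum from 991 to 2120 CPM up to 5660 to 5930 CPM, with 3 of 3 tested fibroblast markers lower and 7 of 7 epithelial markers higher. The pericyte and smooth muscle sum went from 102, 108 and 77.9 CPM to 567, 422 and 385 CPM, with 3 of 6 markers lower (*Acta2*, *Cnn1* and *Rgs5*) and *Notch3*, which made up nearly all of the sum at 12 weeks, higher. The leukocyte sum went from 6.30, 7.54 and 14.0 CPM to 55.3, 58.5 and 64.3 CPM, nearly all *Csf1r* at 12 weeks, with *Ptprc* and *Csf1r* higher among 3 tested, and 0 of 3 basal epithelial markers passed in edgeR or had an unadjusted p under 0.05. Of 4 tested endothelial markers 2 were higher and 1 lower (median 0.89). The part of these markers in the fall of the members was not tested.

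Over the same time fewer members were called in *Ctsd*-/- cells. A single member was called between 1% FCS LT and 1% FCS, *Adamts9*, which was higher, against 1.11% of 15178 genes called higher and 0.369% called lower. These shares, 169 and 56 genes, depended on the processing. Without *Ctsd*-/- 1% FCS replicate 2 the counts were 27 and 21, and in DESeq2 397 and 105. *Adamts9* was at 5.31, 4.00 and 4.26 CPM in 1% FCS and at 83.6, 31.6 and 10.1 CPM in 1% FCS LT (log2 FC 3.21, SE 0.708, adjusted p = 0.0397). The groups did not overlap, but the 3 samples of 1% FCS LT differed widely. Its call ended when any of several samples was left out. The adjusted p was 0.123 without *Ctsd*-/- 1% FCS LT replicate 1, where the log2 FC was 2.20, and 0.0871 without replicate 2. It was 0.0911, 0.16 and 0.16 without replicates 1, 2 and 3 of *Ctsd*-/- 1% FCS, 0.0501 without *Ctsd*+/+ 1% FCS replicate 2 and 0.0637 without *Ctsd*+/+ 1% FCS LT replicate 2. With replicate number as a block common to all cell groups, the log2 FC was 2.97 and the adjusted p 0.0527, and *Adamts5* was called in its place (−1.86, adjusted p = 0.0365). Same-numbered *Ctsd*-/- samples correlated over time (r of 0.131 to 0.178). Those of other pairs of groups did not always do so, with r down to −0.302, so the shared block is supported in part only. Over all alternatives the adjusted p of *Adamts9* ranged from 0.00071 to 0.16. Within the most frequent LR code the log2 FC was 3.80 (SE 0.502, adjusted p = 0.0101), and 1 member was called.

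*Adamts5* in *Ctsd*-/- cells was at 7.67, 4.71 and 4.76 CPM in 1% FCS and at 2.18, 2.40 and 0.460 CPM in 1% FCS LT, a log2 FC of −1.77 that missed the threshold (adjusted p = 0.112). Groups did not overlap for 3 members that were higher in 1% FCS LT (*Adamts9*, *Adamts12* at a log2 FC of 1.47 and *Adamts15* at 1.29), as for 13.5% of all genes, and for 2 that were lower (*Adamts5* and *Adamts4* at −0.61), as for 11.9%. *Adamts1* (log2 FC −0.25), *Adamts6* (−0.14), *Adamts7* (0.26) and *Adamts10* (0.00) had standard errors of 0.414, 0.254, 0.196 and 0.285. *Adamts2* had 0 and 1 counts over the groups, which permits no fold. Among the partner genes *Adamts14* rose from 0.560, 0.0822 and 0.384 CPM to 11.0, 5.85 and 1.02 CPM (log2 FC 4.09, SE 0.812) and *Col5a1* from 6.72, 4.00 and 4.29 CPM to 116, 70.7 and 11.1 CPM (3.72, SE 0.834). With the block *Col5a1* was not called (log2 FC 3.49, adjusted p = 0.0627). In all 3 of *Adamts9*, *Adamts14* and *Col5a1*, replicate 1 of 1% FCS LT was the highest and replicate 3 the lowest. The fibroblast sum had the same order, at 5.74, 3.86 and 3.72 CPM in 1% FCS and 95.7, 11.1 and 7.76 CPM in 1% FCS LT, with *Pdgfra* the most abundant in 1% FCS and *Pdgfrb* in 1% FCS LT, and *Dpt* at 0 in both. None of 3 tested fibroblast markers was called in edgeR, and 1 had an unadjusted p under 0.05. The epithelial sum was 9730, 12100 and 12300 CPM in 1% FCS and 6770, 7620 and 8990 CPM in 1% FCS LT, with *Cdh1* called lower. The part of these markers in the result was not tested.

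**Figure D3:**
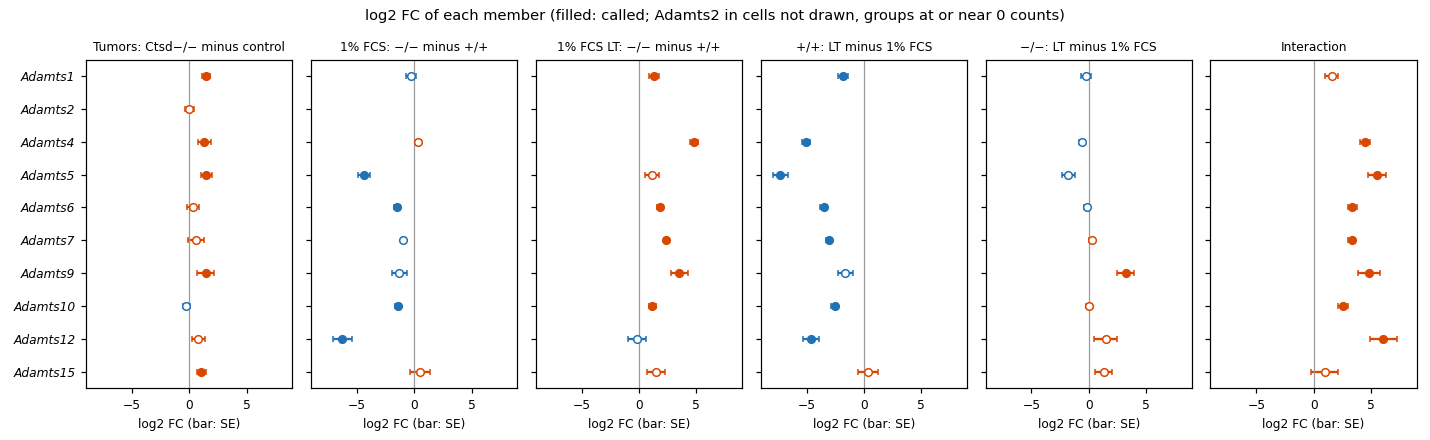
log2 FC with its SE for each member in the 6 comparisons; filled points were called, open points were not, and *Adamts2* is left out in cells, where groups lie at or near 0 counts. In *Ctsd*+/+ cells over time all members drawn but *Adamts15* (0.34) lie left of 0, and in *Ctsd*-/- cells over time *Adamts9* at 3.21 is the single filled point.

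Whether the genotype difference itself changed with time was tested as an interaction, the difference at 12 weeks minus the difference at 10 days. The study corrected its own comparison of *Ctsd*-/- cells over time by this arithmetic. It was called for 7 of the 10 members, all with a higher value after 12 weeks, against 11.0% of 15178 genes with a higher and 8.12% with a lower call. The members' median was 3.93, beside −0.004 over all genes. The log2 FC of the interaction was 6.09 (SE 1.21) for *Adamts12*, 5.52 (SE 0.804) for *Adamts5*, 4.82 (SE 0.979) for *Adamts9*, 4.47 (SE 0.419) for *Adamts4*, 3.38 (SE 0.371) for *Adamts6*, 3.32 (SE 0.287) for *Adamts7* and 2.56 (SE 0.410) for *Adamts10*. For *Adamts4*, the change over time was −5.09 in *Ctsd*+/+ and −0.61 in *Ctsd*-/- cells. For *Adamts7* it was −3.07 and 0.26, for *Adamts10* −2.56 and 0.00, and for *Adamts5* −7.30 and −1.77. For *Adamts9* it was −1.61, which was not called, and 3.21. For *Adamts12* it was −4.62 and 1.47, and for *Adamts6* −3.52 and −0.14. Of these changes in *Ctsd*-/- cells that of *Adamts9* alone was called. These contrasts share samples and are given side by side. *Adamts1* (log2 FC 1.56, adjusted p = 0.0647), *Adamts15* (0.95, adjusted p = 0.581) and *Adamts2*, for which 3 groups lie near 0 counts, were not called. Within the most frequent LR code 7 members were called as well. *Adamts1* was called without *Ctsd*+/+ 1% FCS replicate 3 (adjusted p = 0.0317) or *Ctsd*+/+ 1% FCS LT replicate 1 (0.034).

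The interaction was also called for partners. *Col5a1* had the value 15.39 (SE 1.44), *Nid2* 11.23 (SE 1.97) and *Col1a1* 9.98 (SE 1.12), among 8 higher calls in 19 substrates. *Adamtsl3* had a log2 FC of 8.88 (SE 1.21), *Adamtsl1* of 6.74 (SE 2.16) and *Papln* of 5.68 (SE 1.23), and 5 of 6 ADAMTS-like genes were higher and 1, *Thsd4*, was lower. *Lrp1* was at 5.49 (SE 0.415) and *Pcsk6* at −3.34 (SE 0.549), *Has2* at 4.34 (SE 0.834), *Adamts14* at 6.35 (SE 1.03) and *Adamts8* at 4.38 (SE 0.924). For *Nid2* and *Adamtsl1*, a group with 0 counts, and for *Col5a1* a group close to 0, leaves the size of the value undetermined. Cell type markers were called in the same contrast, with 3 of 3 tested fibroblast markers higher (median 4.77) and 7 of 7 epithelial markers lower (−2.46). Among 6 pericyte and smooth muscle markers *Cnn1* and *Rgs5* were higher and *Notch3* was lower, *Ptprc* and *Csf1r* were lower among 3 tested leukocyte markers, and *Kdr* was higher among 4 tested endothelial markers. The sums of the fibroblast, epithelial, pericyte and leukocyte lists in each sample are those given for the genotype comparisons, and their part in the result was not tested.

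The members differed in how alike their patterns were over the 12 cell samples, measured as the root mean square difference of log2 CPM after centring each gene on its mean. The closest pair was *Adamts6* and *Adamts7* at 0.43, followed by *Adamts7* and *Adamts10* at 0.54, while *Adamts2* and *Adamts15* were the farthest apart at 4.69. An offset of 0.1 CPM was added before the log2. Distances of genes with samples at or near 0 counts, such as *Adamts2* and *Adamts15*, depend on this offset. Among 15177 other genes, the nearest to *Adamts6* were the Notch ligand gene *Jag1* (0.21), *Gm17501* (0.32) and *Ly75* (0.36). *Adamts7* lay nearest to *St6galnac6* (0.23), the growth factor gene *Tgfb1* (0.25) and *Chst14* (0.25), and *Adamts10* to *St6galnac4*, *Crtap* and *Abcc5* (0.29 each). *Adamts5* had the matricellular genes *Ccn4* (0.72) and *Sparc* (0.75) and the collagen gene *Col12a1* (0.78) as nearest. For *Adamts2* they were *Dkk2* (0.76), *Pdpn* (0.78) and *Prrx1* (0.91), the last a mesenchymal transcription factor, and for *Adamts12* *Pear1* (0.47), *Sox8* (0.53) and *1700049E17Rik2* (0.56). *Adamts1* was nearest to *Amotl2* (0.37), *Nectin3* (0.39) and *Gm13563* (0.42), *Adamts4* to *Focad* (0.53), *Parvb* (0.56) and *Tbx3* (0.60), and *Adamts9* to *Col23a1* (0.53), *Agt* (0.62) and *Smr2* (0.62). For *Adamts15*, at very low counts, they were *Ttll13* (0.45), *Mmp25* (0.47) and *Arhgap27os1* (0.48).

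*Adamts1* (chr16:85793827-85803113, minus strand) and *Adamts5* (chr16:85856173-85901828, minus strand) are neighbors on chromosome 16 of GRCm38, yet in *Ctsd*-/- 1% FCS cells *Adamts5* fell and *Adamts1* was not called. *Adamts2* lies at chr11:50602084-50807573 (plus), *Adamts12* at chr15:11064790-11349231 (plus), *Adamts6* at chr13:104287835-104496695 (plus), *Adamts10* at chr17:33524204-33553782 (plus) and *Adamts15* at chr9:30899155-30922452 (minus). The exons of *Adamts4* (chr1:171250421-171260637, plus), *Adamts7* (chr9:90163069-90208071, plus) and *Adamts9* (chr6:92772699-92943492, minus) share 3.6%, 1.9% and 12.0% of their bases with genes on the opposite strand. In tumors, counted regardless of strand, reads from these stretches cannot be assigned to either gene.

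RefSeq promoter windows of 300 bases were at hand for 4 members (GRCm38.p6), and those of *Adamts2* and *Adamts12*, which were both called lower in *Ctsd*-/- 1% FCS cells, are printed with those of *Adamts1*, the most abundant member in cells, and *Adamts9*, the member called higher over time in *Ctsd*-/- cells. They were searched on both strands for the cAMP response element TGACGTCA, its shorter core TGACG (which is part of the full element) and the AP-1 motif TGANTCA. The full element was in 0 of the 4 windows (1.8% of 32851 windows of that length hold it), AP-1 in 0 of 4 (7.8%) and the core, in capitals, in 3 of 4 (20.8%). Counted from the RefSeq start, which differs from the GENCODE start given above for *Adamts12* and *Adamts9*, it begins 170 bases before in *Adamts1*, 205 in *Adamts12* and 218 in *Adamts9*. These are letter matches in the printed windows and do not show that a factor binds there.
Adamts1 (chr16:85803064-85803363, minus strand): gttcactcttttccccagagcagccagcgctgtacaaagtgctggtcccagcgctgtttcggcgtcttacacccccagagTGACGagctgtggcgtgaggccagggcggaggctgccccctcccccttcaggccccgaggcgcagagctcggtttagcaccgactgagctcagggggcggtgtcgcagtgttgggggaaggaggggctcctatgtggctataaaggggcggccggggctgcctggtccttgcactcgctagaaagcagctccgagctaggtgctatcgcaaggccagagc
Adamts2 (chr11:50601835-50602134, plus strand): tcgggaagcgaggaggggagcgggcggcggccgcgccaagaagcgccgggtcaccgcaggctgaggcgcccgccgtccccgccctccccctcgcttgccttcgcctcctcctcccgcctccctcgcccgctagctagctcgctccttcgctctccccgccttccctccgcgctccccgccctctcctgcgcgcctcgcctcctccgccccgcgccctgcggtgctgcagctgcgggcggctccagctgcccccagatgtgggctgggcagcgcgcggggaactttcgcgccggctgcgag
Adamts9 (chr6:92943485-92943784, minus strand): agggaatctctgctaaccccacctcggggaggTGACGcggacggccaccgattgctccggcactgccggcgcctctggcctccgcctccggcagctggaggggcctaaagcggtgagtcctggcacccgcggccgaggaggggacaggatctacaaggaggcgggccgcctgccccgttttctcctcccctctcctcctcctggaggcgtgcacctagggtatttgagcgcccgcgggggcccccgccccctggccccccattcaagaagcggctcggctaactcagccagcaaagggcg
Adamts12 (chr15:11064523-11064822, plus strand): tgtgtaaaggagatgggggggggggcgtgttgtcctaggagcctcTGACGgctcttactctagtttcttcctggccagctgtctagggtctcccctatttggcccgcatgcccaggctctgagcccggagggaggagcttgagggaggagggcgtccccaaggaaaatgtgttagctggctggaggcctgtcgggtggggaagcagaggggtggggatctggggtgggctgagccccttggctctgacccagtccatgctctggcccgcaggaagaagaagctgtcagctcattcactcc

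The limits of these values are few but weigh on all of them. The cell groups hold 3 samples each of 1 line per genotype. The tumor calls rest on unadjusted p-values. Levels below 1 CPM rest on few reads, and the size of a log2 FC against a group at or near 0 counts is not determined by the data.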

How the data were processed

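Gene counts were used as deposited. According to the methods of the authors, reads were trimmed with Trimmomatic and aligned to GRCm38/mm10 with STAR. The count tables of the authors have the layout of gene counts made by STAR and were not scaled. The second column (both strands together) was taken for tumors and the fourth (1 strand) for cells. Of the counts split by strand, 52.82 to 53.66% in tumors and 97.09 to 97.29% in cells lay on the opposite strand. Reads summarized as ambiguous (7.37 to 16.16% in tumors, 1.16 to 1.32% in cells) or mapping to several places were left out of library sizes and tests. The annotation release was not stated. Names came from GENCODE M21, which held 45143 of 45706 identifiers.

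Tumors and cells were fitted apart in R 4.3.3 with edgeR 4.0.16 (filterByExpr, TMM scaling, quasi-likelihood F test), with 18617 and 15178 genes tested, and p-values were adjusted over all genes tested (Benjamini-Hochberg). All 10 members passed the filter in both. DESeq2 1.42.0 and limma 3.58.1 (voom) were used as alternatives. Tumor genes were called at an unadjusted p under 0.1, the threshold of the study. Cell genes were called at an adjusted p under 0.05 with an absolute log2 FC above 1. The study states this p threshold for its cell comparisons. It states the fold threshold for *Ctsd*-/- cells over time, together with a cutoff on expression that was not applied here. The study corrected that comparison for changes in *Ctsd*+/+ cells over time. Its counterpart here is therefore the interaction, and not the uncorrected comparison of *Ctsd*-/- cells over time.

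The named genes were all members, and of each other list up to 3 per comparison that were called, had no overlap between groups and changed most in absolute log2 FC. For the interaction, where overlap is not defined, the call alone was used. Other genes of the lists were named after their values were seen. A bound against a group at 0 used a floor of 3 counts over the group, which covers counting error only. Same-numbered samples deviated together (r above 0.1 in 3 of 3 pairs) between 1% FCS and 1% FCS LT of *Ctsd*-/- cells and between genotypes at 1% FCS. There the number may pair samples, a reading that comes from the data, as the labels state no pairing. Between genotypes the LR code goes with the number in part. It sets apart replicate 1 at 1% FCS and replicate 3 at 1% FCS LT in both genotypes. Over time it does not set apart the same number. With replicate number as a block, *Adamts9* in *Ctsd*-/- cells over time had a log2 FC of 2.97. The members and lists were chosen with earlier results of these data known. The fits were tried on simulated counts with known changes.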

Additional observations from a re-analysis of the deposited data

Results flagged for a closer look

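The values listed here are the interactions that were called for members, where the difference between genotypes was not the same after 12 weeks as after 10 days in 1% FCS. They were 4.47 for *Adamts4*, 5.52 for *Adamts5*, 3.38 for *Adamts6*, 3.32 for *Adamts7*, 4.82 for *Adamts9*, 2.56 for *Adamts10* and 6.09 for *Adamts12* (log2). For *Adamts12*, 3 of the 4 groups rest on 5, 17 and 16 counts. No tumor sample was flagged for any member by the Dixon test, which was run on unlogged CPM in 20 sets of 4 tumors. It did not flag *Adamts7* in control replicate 4, at 0.304 CPM beside 2.64 to 9.24 CPM in the other controls. With so few samples on this scale the test can hardly detect a low sample, so it does not show that none stood apart.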

How the results depend on the processing

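No called log2 FC of a member turned direction in any alternative. Of 1150 member log2 FC values obtained in the alternatives 1104 kept their status, 26 lost the call and 20 gained it. For the other named genes 1144 of 1210 values kept their status, 65 lost the call and 1 gained it. Of these losses 54 came with 1 sample left out. Among values that were never called, 10 turned direction in some alternative, the farthest being *Adamts2* between genotypes at 1% FCS LT (−2.98 to 2.23 with the most frequent LR code alone). The count of members called in *Ctsd*-/- cells over time was 1 in the analysis reported, 0 in limma-voom (*Adamts9* log2 FC 2.73, adjusted p = 0.115) and 2 without a filter on low counts, where *Adamts5* was added (−1.76, adjusted p = 0.0184). With 1 sample left out it was 0 to 1. The tumor count of 5 became 3 to 6 with 1 sample left out, and 4 in limma-voom and with the strand-specific column, where *Adamts9* was not called. With 1 sample left out, the counts were 5 to 6 for genotype at 1% FCS, 5 to 6 at 1% FCS LT, 8 to 9 for *Ctsd*+/+ cells over time and 7 to 8 for the interaction. DESeq2 gave 9 for the interaction, adding *Adamts1* and *Adamts2*.

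Same-numbered samples correlated above 0.1 in 10 of 18 cell pairs and 0 of 4 tumor pairs, and in 3 of 3 pairs for *Ctsd*-/- cells over time and for genotype at 1% FCS. With replicate number as a block, 4 members were called in tumors and 1 in *Ctsd*-/- cells over time, namely *Adamts5* (−1.86, adjusted p = 0.0365) in place of *Adamts9* (2.97, adjusted p = 0.0527), and *Col5a1* lost its call. In the 2 comparisons with 3 of 3 pairs it changed no other call of a named gene.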
